A study of Mus musculus with 8 samples.

Results

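Schwann cell precursor genes were examined in the embryonic mouse tongue bud, the tissue that becomes the tongue. The group consisted of 8 genes of the early glia of peripheral nerves, Sox10, Foxd3, Erbb3, Ngfr, Gfra3, Cdh19, Fabp7 and S100b. Every probe set whose platform annotation names 1 of these genes and no other was taken, which gave 14 of the 34945 probe sets that name a single gene. All 8 genes were among the 18193 genes measured.

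Schwann cell precursors are neural crest cells that have settled on growing nerves and follow them into the target tissue. They depend on neuregulin displayed by the axons, which signals through the receptor pair of Erbb3 and Erbb2, and they are kept in the glial lineage by the transcription factor Sox10. They later give rise to myelinating and non-myelinating Schwann cells, and also to melanocytes and parasympathetic neurons, the latter including the small ganglia of the tongue.

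Tongue buds were collected from C57BL/6J embryos at embryonic day 13.5. Both groups carried the floxed Alk5 fl/fl genotype, 4 control samples without and 4 mutant samples with Wnt1-Cre. In the mutants Cre recombinase, driven by the Wnt1 promoter, removes Alk5 (a TGF-beta receptor) from the cranial neural crest, the lineage from which both the tongue mesenchyme and the nerve glia come. No group carried Wnt1-Cre without the floxed alleles, so transgene and receptor loss cannot be told apart. The study asked how lost TGF-beta signalling in crest cells affects their interaction with the myogenic precursors, and glia were not its stated subject.

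Expression was measured on 1-colour Affymetrix arrays as log2 values per probe set, with array medians from 5.96 to 6.01. Over 3 genes of the Y chromosome the average was 3.09 on control 3 and 8.44 to 8.73 on every other array, and the labels give the sex as not determined. Tgfbr1, the gene of Alk5, read higher on the mutant arrays (log2 change 0.39, adjusted p = 0.00342). Its probes are not placed relative to the floxed part in the sources used here, so this value checks neither the deletion nor the labels. The labels do not say that the numbered buds came from separate litters, so the p-values measure only the spread between these samples, which may be technical. Each sample is RNA of a whole bud, in which fewer glial cells and less of a transcript per cell cannot be told apart.

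Of the 8 genes, 3 fell in the mutants, namely Sox10, Foxd3 and S100b, each by about the same small amount, and 0 rose. A call means an adjusted p under 0.05 in limma over all genes, each gene being read from its brightest probe set. At that threshold 9.72% of all genes were called, 5.52% lower and 4.2% higher. The direction of change was negative in 7 of the 8 genes, with a median log2 change of -0.34, and it was negative in 9711 of all 18193 genes, with a median of -0.01. In 4 of the 8 genes every mutant value lay below every control value, a separation that 8.87% of all genes showed. The count of genes that fell was 1 without mutant 4, and between 1 and 4 when any single array was dropped.

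**Figure D1:**
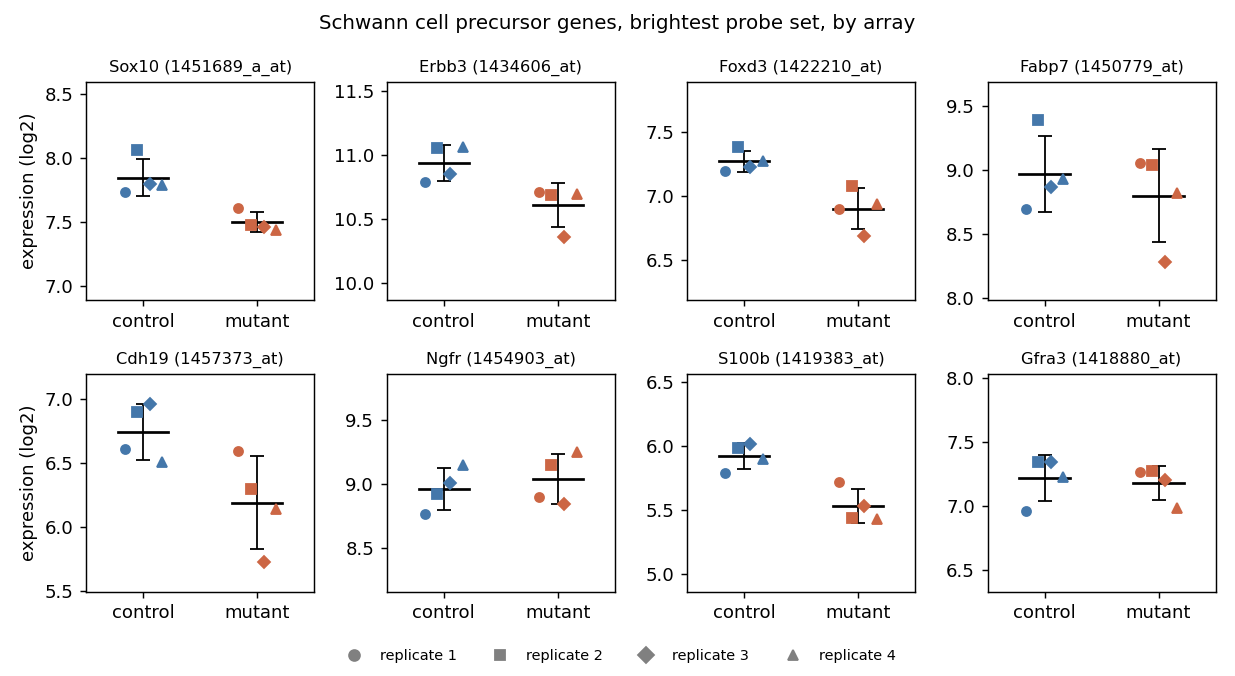
Log2 expression of the 8 genes on their brightest probe sets, with 1 panel a gene, 4 control arrays in blue and 4 mutant arrays in orange, the replicate number shown by the marker, and the mean with 1 SD in black. The groups are separate for Sox10, Erbb3, Foxd3 and S100b and overlap for Fabp7, Cdh19, Ngfr and Gfra3.

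Sox10 encodes the SoxE transcription factor that specifies and maintains the peripheral glial lineage. The brightest of its probe sets was 1451689_a_at, with log2 values of 7.73, 8.06, 7.80 and 7.79 in controls 1 to 4 against 7.61, 7.47, 7.46 and 7.43 in mutants 1 to 4. All mutants lay below all controls, with control 2 the highest array and a gap of 0.12 between the groups. Control buds averaged 7.84 ± 0.15 and mutant buds 7.49 ± 0.08 (SD, n = 4 in each group), a 1.27-fold lower signal (log2 change -0.35, SE 0.078, adjusted p = 0.0219). The call did not hold without mutant 2 (log2 change -0.34), mutant 3 (-0.34) or mutant 4 (-0.33), with adjusted p from 0.0622 to 0.0646.

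The other Sox10 probe sets did not show this difference. On 1424985_a_at the controls read 6.67 to 6.98 and the mutants 6.65 to 6.88, a log2 change of -0.06 (95% interval -0.24 to 0.12). On 1425369_a_at, whose group means of 5.54 and 5.57 lie below the array medians, the change was 0.03 (-0.23 to 0.29). With the mean over all 3 probe sets Sox10 changed by -0.13 and did not pass (adjusted p = 0.304). The fall of Sox10 therefore rests on 1 of its 3 probe sets.

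Foxd3 encodes a forkhead factor of premigratory neural crest and of early glial precursors. Its single probe set, 1422210_at, gave 7.20, 7.39, 7.23 and 7.28 in controls 1 to 4 against 6.90, 7.08, 6.69 and 6.94 in mutants 1 to 4. The 4 mutant values lay below the 4 control values by a gap of 0.12, and mutant 3 was the lowest. Its signal was 1.29-fold lower (log2 change -0.37, SE 0.082, adjusted p = 0.0218). The call did not hold without control 2 (-0.33, adjusted p = 0.065), control 4 (-0.37, 0.0513) or mutant 4 (-0.38, 0.0504).

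S100b encodes a small calcium-binding protein of glia that is also made by chondrocytes. Its brighter probe set, 1419383_at, gave 5.79, 5.98, 6.02 and 5.90 in controls 1 to 4 against 5.72, 5.44, 5.53 and 5.43 in mutants 1 to 4. The groups did not overlap, mutant 1 lying nearest to the controls, and the signal was 1.31-fold lower (log2 change -0.39, SE 0.078, adjusted p = 0.0127). On the dimmer set, 1434342_at, the controls read 4.89, 4.73, 4.61 and 4.47 and the mutants 4.15, 4.37, 3.88 and 3.88. That is again a separation without overlap, with a change of -0.61 (SE 0.13, adjusted p = 0.0259 over all probe sets). S100b was the gene of the group with more than 1 probe set in which all of them fell. Its call over all genes, read from the brighter set, held whichever of the 8 arrays was dropped. That call did not hold with the replicate number as a block (adjusted p = 0.0663). The calls of the 2 sets over all probe sets did not hold in every fit with an array dropped. Both sets lie below the array medians in both groups, and no detection call was used, so the size of the change holds for the measured signal only.

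Of the genes that fell, Foxd3 and S100b have a promoter entry in the RefSeq table (GRCm38.p6), and the bases before their annotated starts are shown because both lay lower in the mutants. The Foxd3 stretch is chr4:99656049-99656298 on the plus strand and the S100b stretch is chr10:76253586-76253835 on the plus strand, each 250 bases long and written 5′ to 3′ in lower case.
Foxd3: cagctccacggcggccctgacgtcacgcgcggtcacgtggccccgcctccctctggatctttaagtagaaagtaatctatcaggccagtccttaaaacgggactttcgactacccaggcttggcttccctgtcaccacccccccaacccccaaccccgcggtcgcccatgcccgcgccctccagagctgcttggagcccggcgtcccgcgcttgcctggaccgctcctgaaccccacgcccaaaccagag
S100b: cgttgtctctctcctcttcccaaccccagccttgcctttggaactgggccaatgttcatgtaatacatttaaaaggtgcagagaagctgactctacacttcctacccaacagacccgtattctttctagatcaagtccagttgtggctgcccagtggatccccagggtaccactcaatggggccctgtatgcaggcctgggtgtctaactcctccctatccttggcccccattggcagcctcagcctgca
Both were searched, with the 50 bases after the start, for the SoxE core written as ACAAAG or ACAATG and for the SMAD box CAGACA, on both strands. Neither motif occurs in the 300 bases of Foxd3 or S100b, nor in those of Fabp7 and Ngfr, the other 2 genes of the group with an entry used here. Among all 32851 promoters of that length 28.6% hold the SoxE core and 21% the SMAD box. No match says only that these letters are not in these windows.

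Erbb3 encodes the neuregulin receptor on which the survival of Schwann cell precursors depends, and it is also made by epithelia. On its brighter probe set, 1434606_at, the controls read 10.79, 11.05, 10.85 and 11.06 and the mutants 10.71, 10.69, 10.36 and 10.69. All mutants were below all controls by a gap of 0.08, and mutant 3 stood apart below the other mutants. The log2 change was -0.33 (95% interval -0.54 to -0.11), which did not pass over all genes (adjusted p = 0.0652). It passed in 2 of 17 alternatives, namely without dim probe sets (adjusted p = 0.0454) and with trend and robust options in limma (0.041). Of the 8 fits with 1 array left out it passed in 0, with an adjusted p of 0.161 without control 2. With the mean of its probe sets the change was -0.21 (adjusted p = 0.114). On the dimmer set, 1452482_at, below the array medians, the change was -0.09 (-0.28 to 0.11).

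Ngfr, the low-affinity neurotrophin receptor p75, is carried by neural crest cells, Schwann cell precursors and many other embryonic cells. On the brightest of its probe sets, 1454903_at, controls 1 to 4 gave 8.76, 8.92, 9.01 and 9.15 and mutants 1 to 4 gave 8.90, 9.15, 8.84 and 9.25. The groups overlapped over most of their range, and the change was 0.07 (95% interval -0.17 to 0.32, adjusted p = 0.738). On 1450177_at the 4 mutants read 6.26 to 6.40 and the controls 6.08 to 6.25, so that all mutants lay just above all controls. That difference of 0.19 (95% interval 0.05 to 0.32) did not pass over all probe sets (adjusted p = 0.112). The dimmest set, 1421241_at, changed by 0.0039 (adjusted p = 0.983).

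Gfra3, a co-receptor of the GDNF family that binds artemin, is made by glial precursors and by some sensory neurons. Its probe set 1418880_at gave 6.96, 7.34, 7.35 and 7.22 in controls 1 to 4 against 7.26, 7.27, 7.20 and 6.99 in mutants 1 to 4. The lowest values of both groups were nearly equal, and the change was -0.04 (95% interval -0.26 to 0.18, adjusted p = 0.864). A fall of the size seen in Sox10, Foxd3 or S100b lies outside that interval.

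Cdh19 encodes a cadherin largely restricted to the Schwann lineage. Its probe set 1457373_at gave 6.61, 6.89, 6.96 and 6.51 in controls 1 to 4 against 6.59, 6.30, 5.72 and 6.14 in mutants 1 to 4. Mutant 1 lay within the control range while the other mutants lay below it, mutant 3 by the most. The mean change of -0.55 (95% interval -0.95 to -0.16), a 1.47-fold lower signal, was the most negative of the brightest probe sets but did not pass (adjusted p = 0.0814). It passed in 2 of 17 alternatives, without mutant 1 (-0.69, adjusted p = 0.0298) and with array weights (-0.60, adjusted p = 0.0437). Its highest adjusted p was 0.212, without controls 1 and 3.

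Fabp7, the brain-type fatty acid binding protein of radial glia and Schwann cell precursors, gave 8.69, 9.39, 8.86 and 8.93 in controls 1 to 4 against 9.06, 9.04, 8.28 and 8.82 in mutants 1 to 4 (1450779_at). Control 2 was the highest array and mutant 3 the lowest, and the other values were interleaved. The change of -0.17 had an interval from -0.60 to 0.26 (adjusted p = 0.647), so these arrays show neither a fall of Fabp7 nor its absence. Without mutant 3 the change was 0.0028.

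**Figure D2:**
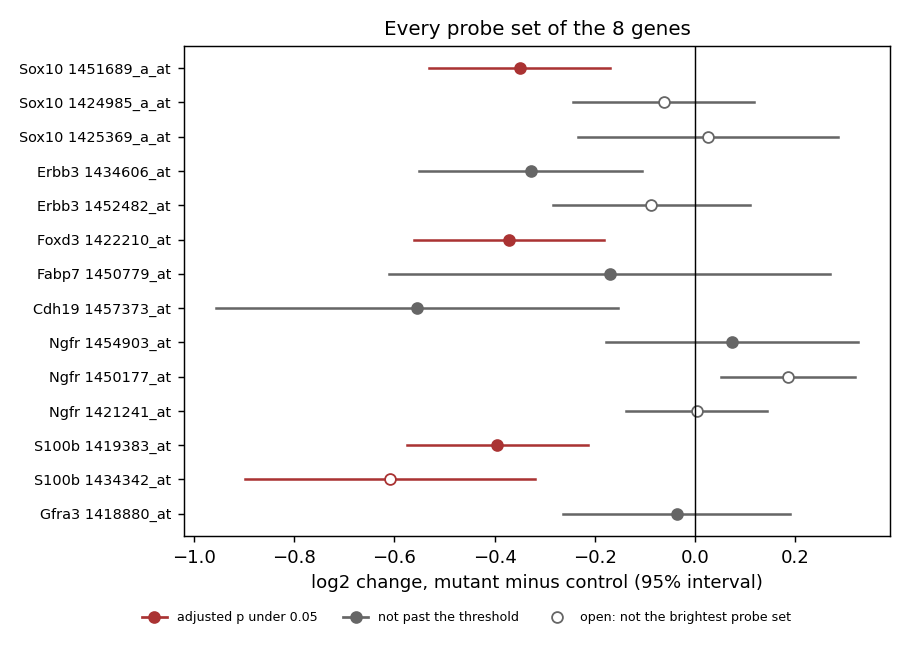
Log2 change with its 95% interval for each of the 14 probe sets, fitted over all 34945 probe sets that name 1 gene. Filled circles are the brightest set of a gene, open circles the others, and red marks an adjusted p under 0.05, which is reached by 1451689_a_at of Sox10, 1422210_at of Foxd3 and both sets of S100b.

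By probe set, 4 of the 14 fell and 0 rose in the fit over all probe sets, where 3.25% of all sets were called lower. These were the brightest set of Sox10 (adjusted p = 0.0359), that of Foxd3 (0.0357) and both of S100b. The number was 0 without control 2, control 3, mutant 3 or mutant 4, and at most 3 with any array left out. Of the 1004 genes called lower, 673 fell by more than Sox10, 626 by more than Foxd3 and 579 by more than S100b.

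The arrays did not contribute evenly. Mutant 3 was the lowest of all 8 arrays for Erbb3, Foxd3, Fabp7 and Cdh19, while mutant 4 was the lowest for Sox10 and S100b and control 1 for Ngfr and Gfra3. The mean over the 8 genes, set against the control mean, was -0.14, -0.18, -0.47 and -0.27 on mutants 1 to 4 and -0.17, 0.14, 0.03 and -0.0032 on controls 1 to 4. Control 1 thus lay below mutant 1 on this mean, and the groups overlapped. The mutants stood in the same order on 7 of the 15 other lists, those of neurotrophin, GDNF family, melanocyte, pan-neuronal, cartilage, endothelial and macrophage genes. Among them, the mean of the macrophage and leukocyte markers was -0.06, -0.32, -0.60 and -0.42 on mutants 1 to 4. That of the pan-neuronal markers was -0.31, -0.36, -0.47 and -0.44, and that of the endothelial markers, above the control mean on all mutants, was 0.42, 0.31, 0.14 and 0.22. The part of these cells in the glial values was not tested.

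Whether the genes of the group changed by different amounts was tested on the difference of each gene from Sox10 on the same array. Sox10 was read from 1451689_a_at, whereas its other sets changed by -0.06 and 0.03, so the differences below hold for that set only. Erbb3, Foxd3 and S100b changed by 0.02 (95% interval -0.21 to 0.26), -0.02 (-0.26 to 0.21) and -0.04 (-0.27 to 0.19) beyond the change of Sox10. Cdh19, at -0.20 (-0.46 to 0.05), and Fabp7, at 0.18 (-0.08 to 0.44), did not differ from Sox10 past the threshold either. The exact two-sided permutation p was 0.314 for Cdh19 and 0.4 for Fabp7. Gfra3 stood 0.31 (95% interval 0.08 to 0.55) above (limma adjusted p = 0.0169), with an exact two-sided permutation p of 0.0286, the smallest that 4 arrays against 4 allow. Exact permutation p-values here and below are not adjusted over genes. Ngfr stood 0.42 above (limma adjusted p = 0.00463), but its exact permutation p was 0.0571 and its adjusted p without variance moderation was 0.0637. Sox10 itself changed by -0.35, so a gene without change stands above it. The values of Sox10 enter every gene of this fit, so the limma intervals of these differences overstate the precision. In limma 76.4% of all genes were called different from Sox10, against 2 of the 7 other genes of the group. Without control 1 or without mutant 2 the count was 1.

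Nerve glia depend on axons, so the same comparison was made with the mean of 15 pan-neuronal markers, which was 7.23 ± 0.09 in controls and 6.83 ± 0.07 in mutants (SD, n = 4 each). Sox10, Foxd3, Erbb3 and S100b changed by 0.05, 0.03, 0.07 and 0.0022 beyond that mean, with intervals that lie between -0.19 and 0.26. Ngfr stood 0.47 above it (limma adjusted p = 0.0022, exact permutation p = 0.0286) and Gfra3 0.36 above it (limma adjusted p = 0.00408, exact permutation p = 0.0571). Of all genes, 88.4% differed from the neuronal mean, against 2 of these 8. The neuronal mean itself changed by -0.40 and the median gene by -0.01, so a gene without change stands above that mean. This comparison therefore largely restates the changes given above, and a link between glial and neuronal changes was not tested. The neuronal mean joins opposite changes. Of its 15 markers 9 fell, among them Stmn3 by -1.21, Tubb3 by -1.38 and Stmn2 by -1.95, and 2 rose, one of them the neurofilament gene Nefl by 1.63.

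**Figure D3:**
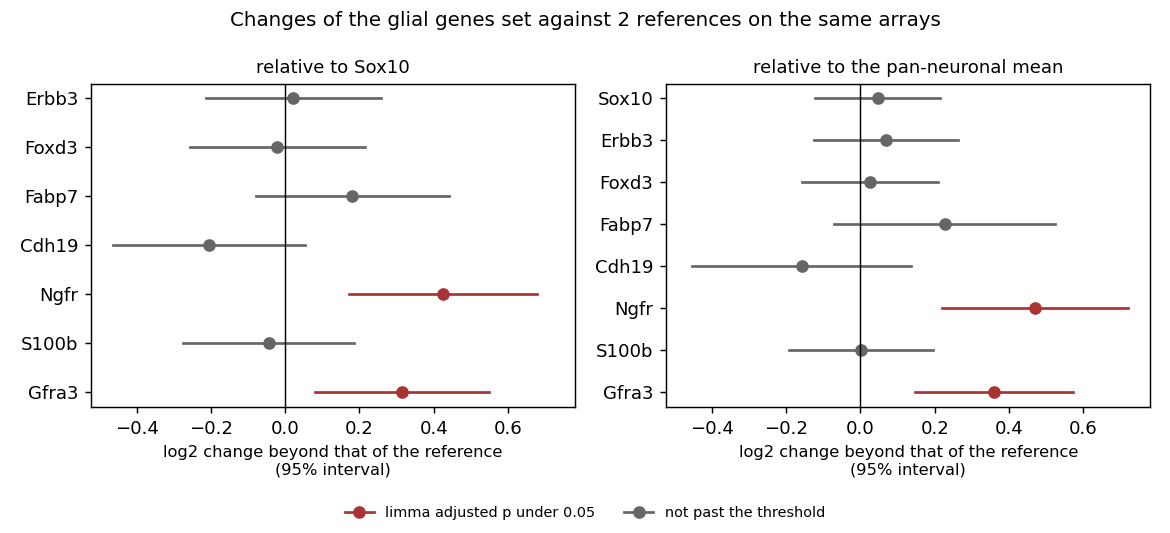
Change of each gene beyond that of Sox10 (left) and beyond that of the pan-neuronal mean (right), in log2 units with 95% intervals from limma. Ngfr and Gfra3, in red, lie to the right of 0 in both panels and the other genes have intervals that include 0. Red marks a limma adjusted p under 0.05. The exact permutation p was 0.0571 for Ngfr on the left and for Gfra3 on the right. On the left all genes share the values of Sox10, so the limma intervals overstate the precision.

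Of 27 further genes of the Schwann lineage measured, 5 fell and 0 rose, with a median change of -0.12. Ncam1, an adhesion molecule shared with neurons and muscle, changed by -0.47 (adjusted p = 0.00284), but by -0.16 (adjusted p = 0.347) when probe sets ending in _s_at, _x_at or _a_at were left out. L1cam, an adhesion molecule of axons and early glia, changed by -0.44 (adjusted p = 0.01), but by -0.22 (adjusted p = 0.079) with the mean of all its probe sets. Egr2, the factor that starts myelination, changed by -0.36 (adjusted p = 0.00582) at levels of 4.80 and 4.45, below the array medians. Pmp22, a myelin protein also made by mesenchyme, changed by -0.36 (adjusted p = 0.0258), a call lost without control 4, mutant 1, mutant 2 or mutant 4. The other gene that fell was Nes, an intermediate filament of progenitors, at -0.44 (adjusted p = 0.0359), which did not pass without control 2, control 4, mutant 1, mutant 3 or mutant 4, nor with the mean of its probe sets (-0.29, adjusted p = 0.362).

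In the neuregulin pathway 1 of 18 measured genes fell and 0 rose, with a median of -0.02. That share of 5.56% is about the 5.52% called lower among all genes. The gene that fell was Adam19, a membrane protease that can shed neuregulin, at -0.40 (adjusted p = 0.0166), a call lost without control 2 or mutant 4 and with the mean of its probe sets (-0.21, adjusted p = 0.0706). Erbb2, the signalling partner of Erbb3, changed by 0.04 (95% interval -0.12 to 0.20), and by -0.03 without control 3. Nrg1, the neuregulin ligand, changed by -0.19 (-0.39 to 0.0059, adjusted p = 0.223) at levels of 5.59 and 5.40, below the array medians.

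Among 12 neurotrophin genes 3 fell and 0 rose. Ntrk3, the receptor of neurotrophin-3, changed by -1.63 (SE 0.19, adjusted p = 0.00109) on its brightest probe set, and 2 of its 8 sets were called lower. Sorcs2, a partner of Ngfr in proneurotrophin signalling, changed by -0.48 and Bex1, an adaptor that binds Ngfr, by -0.31, while Ngfr itself did not pass. In the GDNF family 0 of 8 genes passed on their brightest probe sets with adjustment over all genes in limma, and 1, Ret, had an unadjusted p under 0.05. Ret, the signalling receptor of that family, changed by -0.26 (adjusted p = 0.181) on the set that is brightest over all arrays. On its other set, 1436359_at, Ret was 7.29 ± 0.37 in controls and 4.83 ± 0.23 in mutants (SD, n = 4 each), a change of -2.47 (adjusted p = 0.000255 over all probe sets), the sets of this gene disagreeing about its size.

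Transcription factors and receptors shared with the wider neural crest moved in both directions, 2 of 14 falling and 3 rising. Ednrb, the endothelin receptor of crest-derived glia, melanocytes and enteric precursors, changed by -0.998 (SE 0.057, adjusted p = 3.93e-05), with 2 of its 3 probe sets called lower. Tfap2b, a crest and sympathetic factor, changed by -1.50 (adjusted p = 0.00695). Snai2, a factor of crest emigration and mesenchyme, rose by 0.60 (adjusted p = 0.000245) and Ets1 by 0.45 (adjusted p = 0.0222), the latter call being lost without control 2, control 4, mutant 2 or mutant 3. Sox9, a SoxE factor of cartilage and crest, changed by -0.26 and did not pass (adjusted p = 0.325).

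Marker lists of other cell types were read from the same arrays. A list name does not show that such cells were present in the bud. Of all genes 5.52% were called lower and 4.2% higher, and 9711 of 18193 changed negatively. Of 8 melanocyte markers 0 were called lower, but 7 changed negatively, with a median of -0.12. In both groups 5 of the 8 melanocyte markers lay below the array medians. Their mean level was 5.45 to 5.69 in controls and 5.39 to 5.60 in mutants, and Kit rose by 0.51, or by 0.29 without passing (adjusted p = 0.0652) with the mean of its probe sets. Epithelial markers, which bear on Erbb3, fell in 1 of 10 cases (Krt18, -0.34), changed negatively in 10 of 10, and had mean levels of 9.73 to 9.95 in controls and 9.39 to 9.86 in mutants. The Krt18 call held without control 1 or mutant 4 and was lost without any of the other 6 arrays. Cartilage markers, which bear on S100b, fell in 1 of 9 cases (Col9a3, -0.45) and rose in 1 (Col9a1, 0.995), with mean levels of 6.03 to 6.30 in controls and 6.03 to 6.29 in mutants. Markers of central glia, cells that also make Fabp7, fell in 3 of 10 cases, the glutamate transporter gene Slc1a3 by -0.52, Cspg4 by -0.46 and Aqp4 by -0.54. The Cspg4 call was lost without control 2, and the Aqp4 call without any array but control 3 or mutant 4 and with the mean of its probe sets (-0.26, adjusted p = 0.154). Aqp4 lay below the array medians in both groups, at 5.64 and 5.11. Autonomic neuron markers fell in 2 of 10, Phox2a by -0.79 and Vip by -2.04. Ret, also on that list, counts as not called on its brightest set, although its set 1436359_at changed by -2.47. Phox2a, at 5.93 and 5.15, lay below the array medians in both groups, and Vip, at 6.37 and 4.33, did so in the mutants. Skeletal muscle markers fell in 8 of 12 cases, the troponin gene Tnnt3 by -1.23 (adjusted p = 0.000905). Macrophage markers fell in 5 of 10, among them the receptor gene Csf1r by -0.60 (adjusted p = 0.0245), a call lost when control 2, control 4 or any of mutants 2 to 4 was dropped, and with the mean of its probe sets (-0.36, adjusted p = 0.052). Endothelial markers rose in 3 of 10, the cadherin gene Cdh5 by 0.51 (adjusted p = 0.00342). Neural crest mesenchyme markers fell in 2 of 10 and rose in 1. What part any of these has in the values of the 8 genes was not tested.

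**Figure D4:**
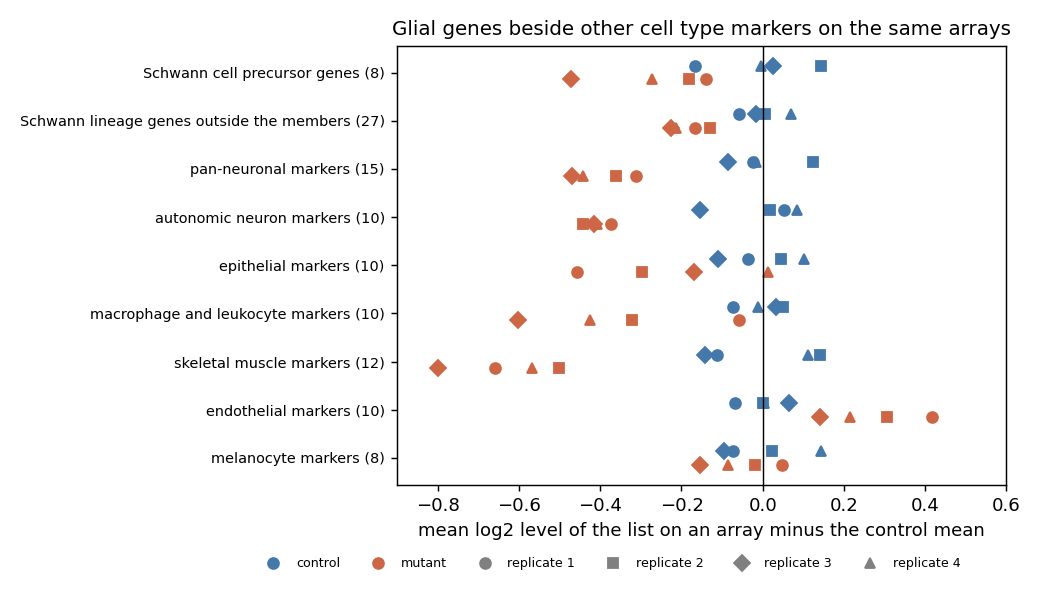
Mean log2 level of the 8 glial genes and of a selection of the other lists on each array, minus the control mean of that list. Controls are in blue, mutants in orange, and the number of measured genes is in brackets. Values of the 8 glial genes run from -0.47 to -0.14 on mutants and from -0.17 to 0.14 on controls, those of the pan-neuronal markers from -0.47 to -0.31 and from -0.08 to 0.12.

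Genes with the pattern most like that of Sox10 were sought among 9093 genes at or above the median level, by the mean absolute difference of their deviations over the 8 arrays. The nearest were Ddah1 at 0.04, then Atp1b1, Plpp5, Fbxo17 and Lzts1 at 0.049 to 0.054 in log2 units. Their changes of -0.42 to -0.27 follow from that choice. Nearest to the mean over the 8 genes were Abhd11 at 0.029, Klf6, Skil, Vkorc1 and Foxo4, the last at 0.04.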

How the data were processed

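RNA of 4 control and 4 mutant tongue buds was measured on 1-colour Affymetrix arrays. The authors deposited expression on the log2 scale, a single value for each probe set and array. The submitters' processing notes name RMA, and version and settings were not given in the sources used here. RMA aligns the arrays, so a shift common to most genes would be removed. Of 45101 probe sets, 64 controls, 932 naming several genes and 9160 unnamed ones were left out of the tests. Where a gene had several probe sets, the one brightest on average across the 8 arrays stood for it.

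The comparison used the lmFit and eBayes functions of limma (3.58.1, under R 4.3.3), two-sided, with Benjamini-Hochberg adjustment over 18193 genes, or over 34945 probe sets where stated. Intervals are 95% intervals of the moderated estimate. Differences from Sox10 and from the neuronal mean were fitted over all genes, beside exact permutation tests. Procedures were tested on simulated data. The genes and lists were chosen with earlier results of these data known. Named were every gene of the group, up to 4 called genes with the smallest p of each list, some defining genes, and the 5 nearest patterns (for some lists only examples of these); Nes was named after its values were seen. Alternatives were other scaling, probe set choice, filters, limma options, array weights, the replicate number as a block, and each array left out. Of 196 list entries, 10 were not analysed here. The number of arrays limits the precision.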

Additional observations from a re-analysis of the deposited data

Results flagged for a closer look

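In 3 of the 28 groups of 4 arrays formed by the 14 probe sets, 1 array lay far from the others by Dixon's ratio of gap to range; chance gives about 1 in 20. For Erbb3 on 1434606_at, mutant 3 read 10.36 against 10.69 to 10.71 on the other mutants. For Erbb3 on the dimmer set 1452482_at, control 4 read 5.93 against 5.59 to 5.65 on the other controls. For Ngfr on 1450177_at, control 4 read 6.25 against 6.08 to 6.11 on the other controls.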

How the results depend on the processing

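Over all alternatives the log2 change of Sox10 stayed between -0.43 and -0.13 and passed in 11 of 16, that of Foxd3 between -0.43 and -0.30 in 13 of 17, and that of S100b between -0.50 and -0.36 in 15 of 16. Sox10 has no value without probe sets ending in _s_at, _x_at or _a_at. With the replicate number as a block 966 genes, 1 of the 8 genes and 1 of the 14 probe sets passed. Same-numbered arrays did not deviate together (correlations -0.40 to 0.017), and no control correlated best with its own number. Without dim probe sets 2 member probe sets passed. Without controls 1 and 3 together, chosen after seeing the data, 0 probe sets passed, 1 gene differed from Sox10, Ngfr changed by -0.0016 and Erbb2 by -0.028. Averaging the probe sets of a gene left 1 gene that differed from Sox10, as did a fit without variance moderation (also added). With 1 array left out 1143 to 1583 genes, 1 to 4 of the 8 genes and 0 to 3 of the 14 probe sets passed, and 1 to 3 genes differed from Sox10. Gfra3 then ranged from -0.12 to 0.028, Fabp7 from -0.26 to 0.0028 and Erbb2 from -0.029 to 0.082. Of 53 called genes of the other lists, 37 passed in each of the 8 such fits. The causes were not tested. No detection calls were used, so low signal limits what is said of S100b, Egr2, Nrg1, Aqp4, Phox2a and Vip, among others; these have no value without dim probe sets.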
